A study of Mus musculus with 11 samples.

Results

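The genes described here encode collagens, laminins, integrins, the matricellular protein SPARC and fibronectin. They were chosen by symbol, as the numbered collagen chains, the laminin alpha, beta and gamma chains, the integrin alpha and beta chains, Sparc and Fn1, which gave 83 genes among the 54686 entries of the gene table. Of these genes, 27 reached 1 FPKM (a level scaled to gene length and to library depth) in at least 2 of 11 libraries, a filter that 12626 entries passed. The 27 were 11 of 44 collagen genes, 4 of 11 laminin genes, 7 of 18 integrin alpha genes, 3 of 8 integrin beta genes, Sparc and Fn1.

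Collagens and laminins are trimers of chains encoded by separate genes. Type IV collagen and laminins form the sheets of basement membranes, fibrillar collagens form cables, and SPARC binds collagen and affects how it is laid down. Integrins are pairs of an alpha and a beta chain that span the cell membrane, bind these proteins and fibronectin outside the cell and connect to actin inside it. Melanoma cells make much of their own matrix, and integrins bear on how they attach and move. YAP and TAZ are co-activators that enter the nucleus when cells are spread on stiff matrix and act mainly through TEAD transcription factors, and genes of matrix and adhesion are among their known targets.

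The libraries came from B16-OVA, a melanoma line derived from C57BL/6J mice and carrying ovalbumin. Every group is thus the same line in culture and shares that transgene. Cells received siRNAs against both YAP and TAZ or a control siRNA, and 48 h later were heated at 45 °C for 1 h with 6 h of recovery at 37 °C, or were left unheated. After heat there were 3 libraries with YAP/TAZ siRNA and 2 with control siRNA (replicates 1 and 3, replicate 2 being not analysed here), and without heat there were 3 with each siRNA. The labels do not say whether replicates were separate cultures, so the p-values reflect only how these samples vary, which may be technical.

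The smallest step between low values corresponded to 30.5 to 43.9 M (mega) counted units per library, so that 0.0228 to 0.0328 FPKM stood for 1 unit on 1 kb of transcript. The commonest low value was about 2 times this step. A unit may thus be 1 end of a read pair, and the depth in pairs may be lower. The targeted gene Yap1 was at 2.61, 2.26 and 2.29 FPKM in heated YAP/TAZ siRNA cells against 10.9 and 5.96 FPKM in heated control siRNA cells. In unheated cells, Yap1 was at 2.75, 3.02 and 2.54 FPKM with YAP/TAZ siRNA against 7.26, 5.79 and 15.6 FPKM with control siRNA. Wwtr1, which encodes TAZ, was at 1.72, 1.40 and 1.55 FPKM in heated YAP/TAZ siRNA cells against 5.50 and 8.47 FPKM in heated control siRNA cells. In unheated cells, Wwtr1 was at 1.83, 1.83 and 1.65 FPKM with YAP/TAZ siRNA against 5.37, 6.28 and 8.20 FPKM with control siRNA. Neither gene's knockdown and control libraries overlapped, and the limma test called both lower without heat (log2 change -1.38 ± 0.30 and -1.45 ± 0.16) and after heat (-1.43 ± 0.34 and -1.62 ± 0.17), although the heated Yap1 call ended without heated control replicate 1 (-1.04, adjusted p = 0.0698). All 8 melanocyte lineage markers passed the filter. Of other cell types, 2 of 5 macrophage, 2 of 7 fibroblast, 1 of 5 lymphocyte and no endothelial or keratinocyte markers (0 of 4 for each) did so. With heat, the median log2 change of all genes was -0.16 in control siRNA cells, and -0.03 after median-of-ratios scaling. That scaling changed 1560 higher and 4654 lower genes into 2469 and 3101. Heat in YAP/TAZ siRNA cells gave 2347 higher and 3999 lower genes, which became 3055 and 2955. For YAP/TAZ siRNA after heat the median of all genes was 0.13 and became 0.02, and 4589 higher and 2266 lower genes became 3365 and 3153.

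Sparc and Itgb1 stood far above the other members on the FPKM scale. Group means were 166 to 404 FPKM for Sparc and 176 to 192 FPKM for Itgb1. They were followed by Lamc1, Lamb2, Itga6 and Itgb5 at 12.0 to 21.1 FPKM as the mean of the 4 group means, and the other 21 members lay at 0.553 to 9.34 FPKM. Among integrin beta chains, Itgb1 made up 91.3 to 92.3% of the summed FPKM in heated YAP/TAZ siRNA cells, 94.3 and 94.5% in heated control siRNA cells, 88.0 to 89.6% in unheated YAP/TAZ siRNA cells and 90.8 to 92.0% in unheated control siRNA cells. Of the 27 members, 21 were at 1 FPKM or more in all 11 libraries. The other 6 had no library at 1 FPKM in at least 1 group (Col11a2, Col1a2, Col4a2, Col9a2, Itga1 and Itga10). Of these, 4 reached it in a single group, Col1a2 and Itga1 in unheated control siRNA cells, Col9a2 in unheated YAP/TAZ siRNA cells and Itga10 in heated control siRNA cells. Col11a2 reached it with YAP/TAZ siRNA alone, and Col4a2 with control siRNA alone. The filter thus admitted these 6 through the groups in which they were high, and their standard errors and adjusted p-values are given from the fit without a filter. Itga10 was the member nearest to the threshold from above, with 2 libraries at 1.10 and 1.08 FPKM. Just outside were 4 members at 1 FPKM or more in a single library: Itga7 (1.16 FPKM), Col4a4 (1.05 FPKM), Col9a3 (1.01 FPKM) and Col10a1 (1.01 FPKM).

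**Figure D1:**
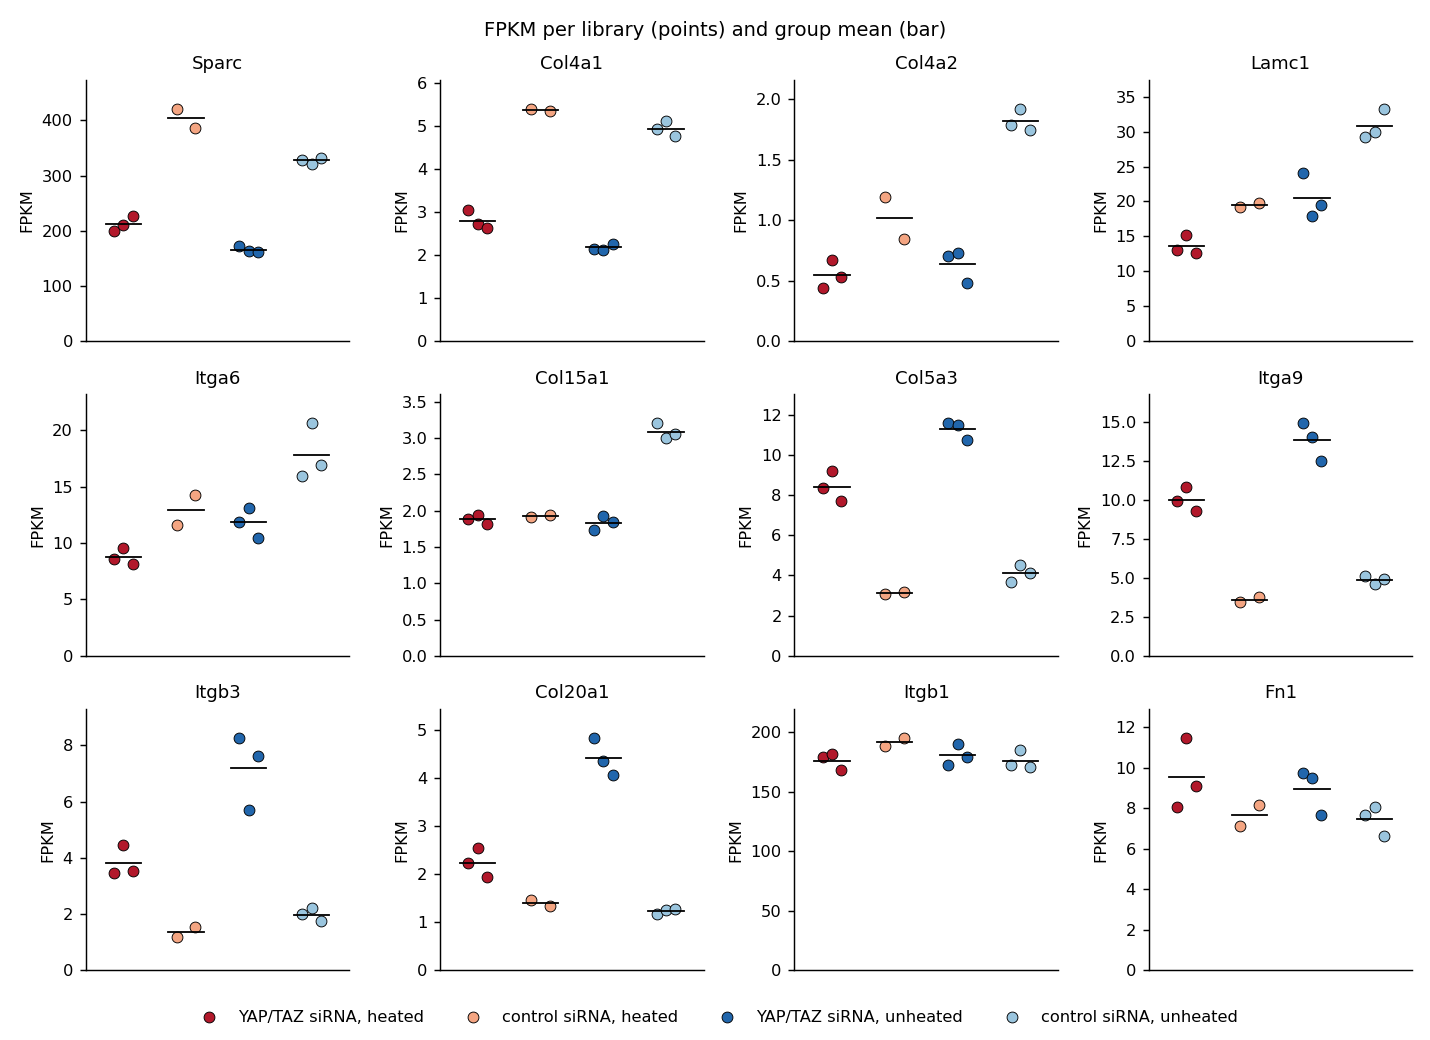
FPKM of 12 members in each library (points, linear axis from 0) with the group mean (bar), in the order heated YAP/TAZ siRNA (n = 3), heated control siRNA (n = 2), unheated YAP/TAZ siRNA (n = 3) and unheated control siRNA (n = 3). Sparc, Col4a1 and Lamc1 lie lower, and Col5a3, Itga9 and Itgb3 higher, in each knockdown library than in the control siRNA libraries of the same heat state, while Itgb1 stays between 168 and 195 FPKM.

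YAP/TAZ siRNA split the members into genes that rose and genes that fell. Of 27 tested, 9 rose and 8 fell without heat, where 27.1% of all genes rose and 21.9% fell (49.0% called in all, limma, Benjamini-Hochberg adjusted p under 0.05 over 12626 genes). After heat 9 rose and 6 fell, where 36.3% of all genes rose and 17.9% fell (54.3% called). The members' split became 8 and 9 with median-of-ratios scaling and 9 and 8 with quantile normalization. Values given with rose and fell are log2 changes of FPKM + 1 with their standard errors, negative where the level was lower. The members' median log2 change was 0.13 without heat, beside 0.02 for all genes, and 0.17 after heat, beside 0.13. These counts include members that passed the filter through 1 group, so they describe the 27 and support nothing beyond that. In both heat states 8 genes rose (Col11a2, Col20a1, Col5a3, Col9a2, Itga9, Itgb3, Lama4 and Lamb2) and 5 fell (Col4a1, Col4a2, Itga6, Lamc1 and Sparc). Another 8 were called in neither, and the 2 comparisons share no libraries. The share of all genes called alike in both heat states is not given here, so these joint counts are description only. The libraries of YAP/TAZ siRNA and control siRNA cells did not overlap for 18 members without heat (58.3% of all genes) and for 22 after heat (70.6% of all genes).

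Sparc had the lowest log2 change of FPKM + 1 among the members in both heat states. Sparc (ENSMUSG00000018593, chromosome 11, 55394500 to 55423183; positions here are on GRCm38) was at 200.5, 211 and 227 FPKM in heated YAP/TAZ siRNA cells against 421 and 387 FPKM in heated control siRNA cells. In unheated cells, Sparc was at 173, 163 and 161 FPKM with YAP/TAZ siRNA against 329, 322 and 332 FPKM with control siRNA. Each knockdown library lay below every control library, a log2 change of -0.98 ± 0.06, adjusted p = 1.49e-06 without heat and -0.92 ± 0.06, adjusted p = 3.86e-06 after heat. The order depends on the scale: with a pseudocount of 0.1 FPKM the lowest value was that of Col4a2 without heat (-1.40, beside -1.15 for Col4a1 and -0.98 for Sparc) and that of Itga10 after heat (-1.52, beside -0.92 for Sparc). In bulk RNA from a culture, fewer cells that express a gene and less RNA per cell cannot be told apart. Sparc alone made up 38.0 to 42.7% of the summed FPKM of the 83 genes in heated YAP/TAZ siRNA cells against 54.0 and 56.8% in heated control siRNA cells, and 30.0 to 31.6% in unheated YAP/TAZ siRNA cells against 47.2 to 49.7% in unheated control siRNA cells.

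The paired type IV collagen genes fell with it. Col4a1 (ENSMUSG00000031502, chromosome 8, 11198423 to 11312826) and Col4a2 (ENSMUSG00000031503, chromosome 8, 11312805 to 11449287) encode the most widespread chains of the basement membrane collagen and lie head to head, so that the annotated transcripts overlap at their starts. Col4a1 was at 3.06, 2.72 and 2.64 FPKM in heated YAP/TAZ siRNA cells against 5.41 and 5.36 FPKM in heated control siRNA cells. In unheated cells, Col4a1 was at 2.15, 2.13 and 2.27 FPKM with YAP/TAZ siRNA against 4.94, 5.12 and 4.78 FPKM with control siRNA. It fell in every knockdown library (log2 change -0.90 ± 0.06, adjusted p = 2.44e-06 without heat and -0.75 ± 0.06, adjusted p = 1.39e-05 after heat). Col4a2 was at 0.437, 0.668 and 0.535 FPKM in heated YAP/TAZ siRNA cells against 1.19 and 0.843 FPKM in heated control siRNA cells. In unheated cells, Col4a2 was at 0.703, 0.725 and 0.479 FPKM with YAP/TAZ siRNA against 1.78, 1.92 and 1.74 FPKM with control siRNA. The control and knockdown libraries did not overlap in either state, with a log2 change of -0.79 ± 0.10, adjusted p = 0.000523 without heat and -0.38 ± 0.11, adjusted p = 0.03 after heat, and the heated call of the filtered fit ended without heated control replicate 1 (-0.26, adjusted p = 0.123). The X-linked chain gene Col4a5 was at 5.74, 6.28 and 4.78 FPKM in heated YAP/TAZ siRNA cells against 4.72 and 4.71 FPKM in heated control siRNA cells. In unheated cells, Col4a5 was at 9.87, 10.3 and 6.94 FPKM with YAP/TAZ siRNA against 7.65, 8.42 and 7.45 FPKM with control siRNA. It was called in neither state (log2 change 0.17 ± 0.13 without heat and 0.20 ± 0.15 after heat). Together Col4a1, Col4a2 and Col4a5, the type IV genes above the filter, made up 21.1 to 23.4% of the summed FPKM of all 44 collagens in heated YAP/TAZ siRNA cells against 32.2 and 32.3% in heated control siRNA cells, and 20.0 to 24.3% in unheated YAP/TAZ siRNA cells against 34.5 to 35.8% in unheated control siRNA cells.

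Other collagens rose. Col5a3 (ENSMUSG00000004098, chromosome 9, 20770050 to 20815067), a chain of the type V collagen that starts fibrils, was at 8.35, 9.21 and 7.68 FPKM in heated YAP/TAZ siRNA cells against 3.05 and 3.18 FPKM in heated control siRNA cells. In unheated cells, Col5a3 was at 11.6, 11.5 and 10.7 FPKM with YAP/TAZ siRNA against 3.66, 4.52 and 4.13 FPKM with control siRNA. The knockdown libraries lay more than 4 FPKM above the control libraries in both states, with log2 changes of 1.27 ± 0.08, adjusted p = 2.32e-06 without heat and 1.19 ± 0.09, adjusted p = 6.43e-06 after heat. Col5a1, which encodes the main type V chain, was at 5.27, 6.62 and 5.21 FPKM in heated YAP/TAZ siRNA cells against 4.70 and 4.63 FPKM in heated control siRNA cells. In unheated cells, Col5a1 was at 7.48, 7.31 and 6.05 FPKM with YAP/TAZ siRNA against 6.06, 6.52 and 6.18 FPKM with control siRNA. It was called in neither state (log2 change 0.13 ± 0.09 without heat and 0.24 ± 0.11 after heat), and the Col5a1 to Col5a3 ratio of FPKM was 0.631 to 0.719 in heated YAP/TAZ siRNA cells against 1.45 and 1.54 in heated control siRNA cells, and 0.564 to 0.647 in unheated YAP/TAZ siRNA cells against 1.44 to 1.66 in unheated control siRNA cells. Col20a1, a fibril-associated collagen with interrupted triple helices (ENSMUSG00000016356, chromosome 2, 180986535 to 181018363), was at 2.23, 2.54 and 1.94 FPKM in heated YAP/TAZ siRNA cells against 1.48 and 1.35 FPKM in heated control siRNA cells. In unheated cells, Col20a1 was at 4.84, 4.36 and 4.07 FPKM with YAP/TAZ siRNA against 1.18, 1.26 and 1.29 FPKM with control siRNA. It rose by 1.27 ± 0.08, adjusted p = 2.71e-06 without heat and by 0.42 ± 0.09, adjusted p = 0.00342 after heat. A same-strand gene, BX649560.1, shares exons with Col20a1 and was at 1.57 to 4.41 FPKM, so reads of the pair may have been divided between them.

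Col9a2 and Col11a2 encode chains of cartilage collagens and lay near the filter. Col9a2 was at 0.969, 0.847 and 0.794 FPKM in heated YAP/TAZ siRNA cells against 0.0910 and 0.147 FPKM in heated control siRNA cells. In unheated cells, Col9a2 was at 1.50, 1.86 and 1.76 FPKM with YAP/TAZ siRNA against 0.275, 0.196 and 0.264 FPKM with control siRNA. In the fit without a filter it rose by 1.12 ± 0.07, adjusted p = 1.23e-05 without heat and by 0.74 ± 0.08, adjusted p = 0.000159 after heat. Col11a2 was at 0.850, 1.12 and 1.07 FPKM in heated YAP/TAZ siRNA cells against 0.589 and 0.567 FPKM in heated control siRNA cells. In unheated cells, Col11a2 was at 1.27, 1.34 and 1.44 FPKM with YAP/TAZ siRNA against 0.259, 0.173 and 0.254 FPKM with control siRNA. In that fit Col11a2 rose by 0.94 ± 0.07, adjusted p = 2.97e-05 without heat and by 0.35 ± 0.08, adjusted p = 0.00984 after heat. For both genes all control siRNA libraries lay below all knockdown libraries of the same heat state. Col15a1 and Col1a2 fell in unheated cells. Col15a1, of a basement membrane zone proteoglycan, was at 1.89, 1.94 and 1.81 FPKM in heated YAP/TAZ siRNA cells against 1.91 and 1.94 FPKM in heated control siRNA cells. In unheated cells, Col15a1 was at 1.74, 1.92 and 1.84 FPKM with YAP/TAZ siRNA against 3.20, 2.99 and 3.05 FPKM with control siRNA. Col1a2, which encodes the second chain of fibrillar type I collagen, was at 0.362, 0.406 and 0.400 FPKM in heated YAP/TAZ siRNA cells against 0.503 and 0.570 FPKM in heated control siRNA cells. In unheated cells, Col1a2 was at 0.658, 0.566 and 0.709 FPKM with YAP/TAZ siRNA against 1.17, 1.30 and 1.14 FPKM with control siRNA. For both genes the 3 unheated control libraries were above all other libraries. The log2 changes were -0.53 ± 0.05, adjusted p = 3.57e-05 and -0.42 ± 0.06, adjusted p = 0.000926 without heat, and -0.02 ± 0.06 and -0.15 ± 0.07, not called, after heat, although Col1a2 was called with median-of-ratios scaling (-0.20, adjusted p = 0.0386). Col16a1, a fibril-associated collagen, was at 7.04, 7.91 and 7.69 FPKM in heated YAP/TAZ siRNA cells against 6.69 and 6.53 FPKM in heated control siRNA cells. In unheated cells, Col16a1 was at 7.72, 8.75 and 8.70 FPKM with YAP/TAZ siRNA against 7.09, 7.48 and 7.12 FPKM with control siRNA. Its rise without heat (0.19 ± 0.06, adjusted p = 0.0273) ended under 7 of the alternative settings tried (another pseudocount, filter, scaling or set of libraries), among them median-of-ratios scaling (0.12, adjusted p = 0.123).

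The 4 laminin genes above the filter moved in different directions. Lamc1 (ENSMUSG00000026478, chromosome 1, 153218922 to 153332786), the gamma chain of most laminin trimers, was at 13.1, 15.2 and 12.6 FPKM in heated YAP/TAZ siRNA cells against 19.1 and 19.8 FPKM in heated control siRNA cells. In unheated cells, Lamc1 was at 24.1, 18.0 and 19.5 FPKM with YAP/TAZ siRNA against 29.2, 29.9 and 33.3 FPKM with control siRNA. All knockdown libraries were lower than the control libraries of the same state, by log2 changes of -0.57 ± 0.11, adjusted p = 0.00166 without heat and -0.49 ± 0.12, adjusted p = 0.0068 after heat. Lamb2, the beta chain of laminins in vessel and nerve basement membranes, was at 18.5, 19.5 and 18.2 FPKM in heated YAP/TAZ siRNA cells against 15.4 and 15.2 FPKM in heated control siRNA cells. In unheated cells, Lamb2 was at 25.1, 23.4 and 23.4 FPKM with YAP/TAZ siRNA against 17.9, 16.4 and 16.0 FPKM with control siRNA. It rose without heat (0.49 ± 0.05, adjusted p = 6.31e-05) and after heat (0.28 ± 0.06, adjusted p = 0.00353), and the heated call ended with median-of-ratios scaling (0.14, adjusted p = 0.0695). The Lamc1 to Lamb2 ratio of FPKM was 0.692 to 0.779 in heated YAP/TAZ siRNA cells against 1.24 and 1.30 in heated control siRNA cells, and 0.769 to 0.960 in unheated YAP/TAZ siRNA cells against 1.63 to 2.08 in unheated control siRNA cells.

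Lama4, the alpha chain of endothelial-type laminins, was at 10.8, 11.5 and 9.57 FPKM in heated YAP/TAZ siRNA cells against 7.54 and 7.66 FPKM in heated control siRNA cells. In unheated cells, Lama4 was at 10.5, 10.4 and 9.90 FPKM with YAP/TAZ siRNA against 9.03, 9.21 and 8.51 FPKM with control siRNA. It rose after heat (0.43 ± 0.07, adjusted p = 0.00083), while its call without heat (0.18 ± 0.06, adjusted p = 0.0385) ended under 10 of the alternatives, among them the omission of each unheated control replicate. Lama5, another laminin alpha chain, was at 2.47, 3.08 and 2.34 FPKM in heated YAP/TAZ siRNA cells against 3.43 and 3.43 FPKM in heated control siRNA cells. In unheated cells, Lama5 was at 4.21, 3.75 and 2.87 FPKM with YAP/TAZ siRNA against 3.49, 3.20 and 2.83 FPKM with control siRNA. Lama5 was not called without heat (0.13 ± 0.12, adjusted p = 0.387) or after heat (-0.29 ± 0.13, adjusted p = 0.0901), where 5 alternatives called it lower, among them median-of-ratios scaling (-0.40, adjusted p = 0.0253), quantile normalization (-0.40, adjusted p = 0.0198) and the replicate block (-0.33, adjusted p = 0.0368). Fn1 (ENSMUSG00000026193, chromosome 1, 71585520 to 71653200), which encodes the soluble and matrix glycoprotein fibronectin, was at 8.07, 11.5 and 9.10 FPKM in heated YAP/TAZ siRNA cells against 7.14 and 8.17 FPKM in heated control siRNA cells. In unheated cells, Fn1 was at 9.77, 9.51 and 7.66 FPKM with YAP/TAZ siRNA against 7.68, 8.10 and 6.65 FPKM with control siRNA. Its groups overlapped in every comparison and it was never called. The 95% intervals of its log2 change were -0.06 to 0.53 without heat and -0.05 to 0.60 after heat, so a rise of moderate size is within them.

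Among receptors, Itga9 and Itgb3 rose and Itga6 fell. Itga9 (ENSMUSG00000039115, chromosome 9, 118606690 to 118901003), an alpha chain that pairs with beta 1 and binds tenascin and osteopontin, was at 9.96, 10.8 and 9.31 FPKM in heated YAP/TAZ siRNA cells against 3.46 and 3.77 FPKM in heated control siRNA cells. In unheated cells, Itga9 was at 14.9, 14.1 and 12.5 FPKM with YAP/TAZ siRNA against 5.12, 4.60 and 4.96 FPKM with control siRNA. Itgb3 (ENSMUSG00000020689, chromosome 11, 104608000 to 104670476), the beta chain of the vitronectin receptor, was at 3.46, 4.47 and 3.53 FPKM in heated YAP/TAZ siRNA cells against 1.17 and 1.53 FPKM in heated control siRNA cells. In unheated cells, Itgb3 was at 8.26, 5.71 and 7.62 FPKM with YAP/TAZ siRNA against 1.99, 2.22 and 1.75 FPKM with control siRNA. For each gene the lowest knockdown library lay above the highest control library in both states. Itga9 rose by 1.33 ± 0.08, adjusted p = 1.62e-06 without heat and by 1.26 ± 0.09, adjusted p = 3.99e-06 after heat. Itgb3 rose by 1.45 ± 0.13, adjusted p = 2.21e-05 without heat and by 1.03 ± 0.15, adjusted p = 0.000358 after heat. Itga6 (ENSMUSG00000027111, chromosome 2, 71745616 to 71858416), an alpha chain of laminin receptors, was at 8.61, 9.58 and 8.16 FPKM in heated YAP/TAZ siRNA cells against 11.6 and 14.3 FPKM in heated control siRNA cells. In unheated cells, Itga6 was at 11.9, 13.1 and 10.5 FPKM with YAP/TAZ siRNA against 16.0, 20.6 and 16.9 FPKM with control siRNA. It fell without heat (-0.55 ± 0.12, adjusted p = 0.00354) and after heat (-0.51 ± 0.13, adjusted p = 0.00889), and the heated call ended without heated control replicate 3 (-0.37, adjusted p = 0.088).

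Itgb1 (ENSMUSG00000025809, chromosome 8, 128685654 to 128733200), the beta chain shared by most collagen, laminin and fibronectin receptors, was at 179, 182 and 168 FPKM in heated YAP/TAZ siRNA cells against 188 and 195 FPKM in heated control siRNA cells. In unheated cells, Itgb1 was at 173, 190.1 and 179 FPKM with YAP/TAZ siRNA against 173, 186 and 171 FPKM with control siRNA. Its FPKM lay within a narrow band in all 4 groups. In the main fit, of log2(FPKM + 1) with a mean for each group, no comparison called it. Its heated control libraries still lay above its heated YAP/TAZ siRNA libraries and its unheated control libraries. The 95% interval of its log2 change was -0.08 to 0.15 without heat and -0.25 to 0.01 after heat. Under alternatives it was called. With the replicate block, on the same scale, it was lower with YAP/TAZ siRNA after heat (-0.15, adjusted p = 0.0172). That fit also called it higher with heat in control siRNA cells (0.15, adjusted p = 0.0192). The difference between the heat responses was called lower there (-0.19, adjusted p = 0.0308). With median-of-ratios scaling it was lower with YAP/TAZ siRNA after heat (-0.26, adjusted p = 0.0028), higher with heat in control siRNA cells (0.29, adjusted p = 0.00199) and lower in the difference between the heat responses (-0.22, adjusted p = 0.0374). With quantile normalization it was lower with YAP/TAZ siRNA after heat (-0.28, adjusted p = 0.0375) and with heat in YAP/TAZ siRNA cells (-0.42, adjusted p = 0.00436), and lower in the difference between the heat responses (-0.43, adjusted p = 0.0316). Itgb5, another partner of the alpha V chain, was at 10.6, 11.8 and 11.1 FPKM in heated YAP/TAZ siRNA cells against 8.08 and 7.77 FPKM in heated control siRNA cells. In unheated cells, Itgb5 was at 14.5, 15.6 and 14.5 FPKM with YAP/TAZ siRNA against 13.9, 13.6 and 15.1 FPKM with control siRNA. It rose after heat (0.44 ± 0.06, adjusted p = 0.000344) and not by its call without heat (0.06 ± 0.06). Itga4, the fibronectin and VCAM receptor chain, was at 5.76, 6.39 and 5.28 FPKM in heated YAP/TAZ siRNA cells against 4.23 and 4.39 FPKM in heated control siRNA cells. In unheated cells, Itga4 was at 8.96, 8.19 and 6.51 FPKM with YAP/TAZ siRNA against 8.35, 8.51 and 6.50 FPKM with control siRNA. Itga5, the main fibronectin receptor chain, was at 4.72, 5.22 and 4.88 FPKM in heated YAP/TAZ siRNA cells against 4.76 and 4.22 FPKM in heated control siRNA cells. In unheated cells, Itga5 was at 6.41, 5.84 and 5.96 FPKM with YAP/TAZ siRNA against 5.52, 5.32 and 5.21 FPKM with control siRNA. Neither was called for YAP/TAZ siRNA in either state (Itga4 0.01 ± 0.12 and 0.36 ± 0.14, Itga5 0.15 ± 0.06 and 0.11 ± 0.07, without and after heat), but 7 alternatives called Itga4 higher after heat (0.31 to 0.42). Itga4 exons overlap those of Cerkl, which was at 0.200 to 0.652 FPKM.

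The remaining receptors were low or scattered. Itgav, the alpha chain of vitronectin receptors, was at 2.71, 7.87 and 1.71 FPKM in heated YAP/TAZ siRNA cells against 3.92 and 3.88 FPKM in heated control siRNA cells. In unheated cells, Itgav was at 6.29, 5.63 and 3.69 FPKM with YAP/TAZ siRNA against 5.77, 5.76 and 4.51 FPKM with control siRNA. The heated YAP/TAZ siRNA libraries alone spanned 1.71 to 7.87 FPKM, and the 95% intervals of the log2 change were wide (-0.88 to 0.78 without heat and -1.06 to 0.79 after heat). Without heated YAP/TAZ siRNA replicate 2, the library at 7.87 FPKM, Itgav was called lower with YAP/TAZ siRNA after heat (-0.63, adjusted p = 0.0422) and lower with heat in YAP/TAZ siRNA cells (-0.94, adjusted p = 0.00578). Itga10, a collagen receptor chain of cartilage, was at 0.401, 0.332 and 0.229 FPKM in heated YAP/TAZ siRNA cells against 1.10 and 1.08 FPKM in heated control siRNA cells. In unheated cells, Itga10 was at 0.338, 0.521 and 0.228 FPKM with YAP/TAZ siRNA against 0.534, 0.475 and 0.314 FPKM with control siRNA. It passed the filter only through the heated control libraries. In the fit without a filter it fell after heat (-0.66 ± 0.10, adjusted p = 0.0013) and was not called without heat (-0.08 ± 0.09). Itga1, a collagen receptor chain, ranged over 0.513 to 1.16 FPKM in the 11 libraries. In that fit it fell without heat (-0.29 ± 0.07, adjusted p = 0.012).

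**Figure D2:**
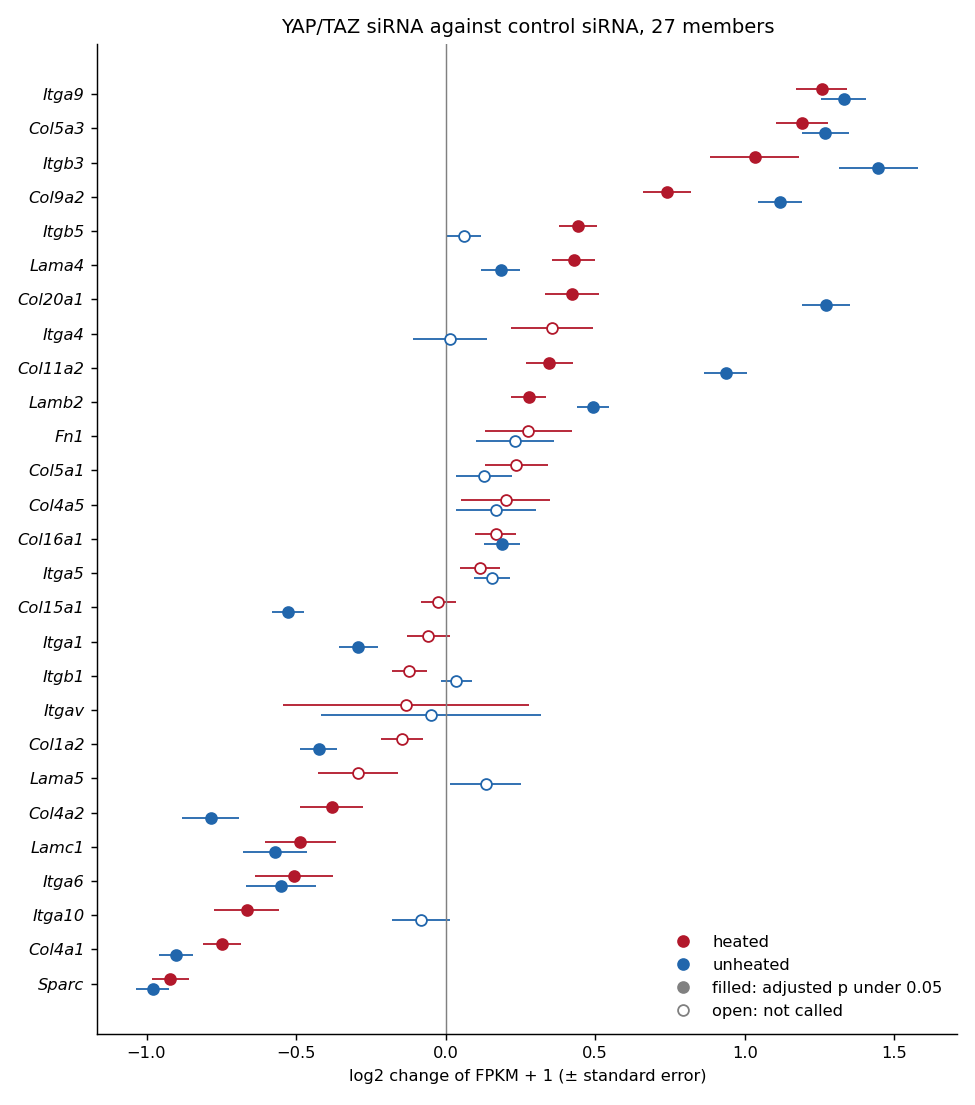
Log2 change of FPKM + 1 (points, with standard errors) for YAP/TAZ siRNA against control siRNA in the 27 members, heated cells in red and unheated cells in blue, ordered by the heated value. Filled points were called and open points were not. Sparc lies lowest in both states (-0.92 after heat and -0.98 without), and Itga9, Col5a3 and Itgb3 lie highest after heat at 1.03 to 1.26.

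Promoter sequence was examined because members moved in both directions and YAP and TAZ act through TEAD factors. Of the 27 members, 22 matched an entry of the RefSeq promoter table for GRCm38.p6 (Fn1, Itga6, Itgb3, Lama4 and Lamc1 had none), and the 250 bases before each start site were searched on both strands. The TEAD word GGAATG was in the windows of Col20a1, Itga10 and Itgb1, 3 of 22, against 12.6% of 32851 windows of the same length. These differ in their responses: Col20a1 rose with YAP/TAZ siRNA in both states, Itga10 fell after heat only by its call, and Itgb1 was not called in the main fit. The windows are shown with the word, or its reverse complement, in capitals.
Col20a1, chr2:180986285-180986534, plus strand: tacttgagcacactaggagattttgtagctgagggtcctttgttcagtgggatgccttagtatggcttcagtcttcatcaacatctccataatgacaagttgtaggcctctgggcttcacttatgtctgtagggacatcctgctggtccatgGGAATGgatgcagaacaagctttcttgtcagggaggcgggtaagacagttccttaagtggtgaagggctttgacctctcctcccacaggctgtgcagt
Itgb1, chr8:128685404-128685653, plus strand: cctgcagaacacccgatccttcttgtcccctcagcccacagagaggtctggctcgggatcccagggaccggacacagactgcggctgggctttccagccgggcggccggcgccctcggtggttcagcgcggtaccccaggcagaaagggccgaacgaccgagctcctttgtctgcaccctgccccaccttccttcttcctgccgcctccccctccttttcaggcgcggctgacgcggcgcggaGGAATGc
Itga10, 29 bases, chr3:96645497-96645525, plus strand: caccaccactccCATTCCatccaacttta
The Col20a1 window overlaps an exon of BX649560.1. The AP-1 word TGANTCA (6.75% of all windows) and a heat shock element of 3 units (0.466% of all windows) were in none of the 22. The CCAAT box CCAAT was in 6 of 22 (Col16a1, Col1a2, Col4a1, Col4a2, Col4a5 and Col5a3), against 33.9% of all windows. The next 3 sequences, with CCAAT or its reverse complement in capitals, are those of Col5a3, which rose with YAP/TAZ siRNA, and of the head-to-head Col4a1 and Col4a2, which fell.
Col5a3, chr9:20815068-20815317, minus strand: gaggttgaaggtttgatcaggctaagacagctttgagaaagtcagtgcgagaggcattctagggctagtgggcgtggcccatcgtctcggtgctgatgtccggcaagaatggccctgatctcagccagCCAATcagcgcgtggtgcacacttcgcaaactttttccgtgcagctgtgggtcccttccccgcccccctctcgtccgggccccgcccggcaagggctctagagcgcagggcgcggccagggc
Col4a1, 29 bases, chr8:11312955-11312983, minus strand: tgcttgcccgggATTGGcgagccaagggg
Col4a2, 29 bases, chr8:11312761-11312789, plus strand: ccgaggagctccCCAATttgttggcgctg
All are RefSeq sequence of build GRCm38.p6, written 5′ to 3′ on the strand of the gene, and a match of letters is a description and not a binding site.

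Heat lowered more members than it raised in both siRNA states. In control siRNA cells 3 of 27 rose and 14 fell, where 12.4% of all genes rose and 36.9% fell (49.2% called). The members' split became 5 and 8 with median-of-ratios scaling and 4 and 9 with quantile normalization. In YAP/TAZ siRNA cells 2 rose and 15 fell, where 18.6% of all genes rose and 31.7% fell (50.3% called). The members' median log2 change was -0.31 in control siRNA cells, beside -0.16 for all genes, and -0.25 in YAP/TAZ siRNA cells, beside -0.09. Sparc rose in both, and 9 members fell in both (Col1a2, Col4a5, Col5a3, Itga4, Itga5, Itga6, Itga9, Itgb5 and Lamc1). Of these 9, 4 were lower in both siRNA states with median-of-ratios scaling, and those 4 also after quantile normalization (Col1a2, Col4a5, Itgb5 and Lamc1). The share of all genes called alike in both siRNA states is not given here, so the joint counts are description only. Col11a2 was called in opposite directions in the filtered fit. In the fit without a filter it was not called in YAP/TAZ siRNA cells (-0.23, adjusted p = 0.0511). Another 4 members were called in neither (Col16a1, Fn1, Itgav and Itgb1). Heated and unheated libraries did not overlap for 25 members in control siRNA cells (69.8% of all genes) and for 16 in YAP/TAZ siRNA cells (57.4% of all genes).

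Sparc rose with heat by 0.30 ± 0.06, adjusted p = 0.00312 in control siRNA cells. It rose by 0.36 ± 0.06, adjusted p = 0.000773 in YAP/TAZ siRNA cells, a value that turned to -0.05 (adjusted p = 0.533) with quantile normalization. The heated knockdown libraries (200.5 to 227 FPKM) still lay below the unheated control libraries (322 to 332 FPKM). Col4a1 rose by 0.26 ± 0.06, adjusted p = 0.00483 in YAP/TAZ siRNA cells and was not called in control siRNA cells (0.10 ± 0.06), where it was called higher with median-of-ratios scaling (0.25, adjusted p = 0.00993) and quantile normalization (0.30, adjusted p = 0.0041). Col4a2 fell in control siRNA cells (-0.49 ± 0.11, adjusted p = 0.0101) and was not called in YAP/TAZ siRNA cells (-0.08 ± 0.10). The Col4a1 to Col4a2 ratio of FPKM was 4.07 to 7.0 in heated YAP/TAZ siRNA cells against 2.94 to 4.74 in unheated YAP/TAZ siRNA cells, and 4.54 and 6.36 in heated control siRNA cells against 2.67 to 2.77 in unheated control siRNA cells. Col4a5 fell, at -0.59 ± 0.13, adjusted p = 0.00542 in YAP/TAZ siRNA cells and at -0.63 ± 0.15, adjusted p = 0.00671 in control siRNA cells.

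Lamc1 fell with heat in both siRNA states, at -0.55 ± 0.11, adjusted p = 0.00245 in YAP/TAZ siRNA cells and at -0.63 ± 0.12, adjusted p = 0.00179 in control siRNA cells. Its highest heated control library, at 19.8 FPKM, was under the lowest unheated one, at 29.2 FPKM. Lamb2 fell in YAP/TAZ siRNA cells (-0.34 ± 0.05, adjusted p = 0.000892) and was not called in control siRNA cells (-0.12 ± 0.06). The Lama5 call in YAP/TAZ siRNA cells (-0.34 ± 0.12, adjusted p = 0.0393) ended under 11 of the alternatives, and its heated and unheated libraries overlapped. The Lama4 call in control siRNA cells (-0.20 ± 0.07, adjusted p = 0.0387) ended under 9 of them.

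Among the receptors, Itgb3 fell the most with heat in YAP/TAZ siRNA cells and Itgb5 in control siRNA cells, on the log2(FPKM + 1) scale. With a pseudocount of 0.1 FPKM collagens lay lower than both, Col20a1 at -0.96 beside -0.89 for Itgb3 in YAP/TAZ siRNA cells and Col1a2 at -1.04 beside -0.83 for Itgb5 in control siRNA cells. Itgb5 fell, at -0.38 ± 0.06, adjusted p = 0.000615 in YAP/TAZ siRNA cells and at -0.77 ± 0.06, adjusted p = 1.22e-05 in control siRNA cells. Itga4 fell, at -0.72 ± 0.14, adjusted p = 0.00205 in control siRNA cells, and its call in YAP/TAZ siRNA cells (-0.38 ± 0.12, adjusted p = 0.0294) ended under 7 of the alternatives. Itgb3 fell in YAP/TAZ siRNA cells (-0.76 ± 0.13, adjusted p = 0.00151) and was not called in control siRNA cells (-0.35 ± 0.15, adjusted p = 0.0834), where 3 alternatives called it lower, among them a pseudocount of 0.1 FPKM (-0.53, adjusted p = 0.0416). Itga9 fell, at -0.43 ± 0.08, adjusted p = 0.00166 in YAP/TAZ siRNA cells and at -0.35 ± 0.09, adjusted p = 0.00709 in control siRNA cells, and the call in control siRNA cells ended with median-of-ratios scaling (-0.22, adjusted p = 0.0504), with quantile normalization (-0.15, adjusted p = 0.187) and without heated control replicate 1 (-0.31, adjusted p = 0.062). The heat calls of Itga5, Itga6, Col5a1 and Col5a3 in control siRNA cells also ended under both of those scalings. So did that of Itga6 in YAP/TAZ siRNA cells (-0.29, adjusted p = 0.0532 and -0.30, adjusted p = 0.0622), which ended with 4 omissions of a library as well. Itga10, which the filter admitted through the heated control libraries, was higher with heat in control siRNA cells by 0.54 ± 0.10, adjusted p = 0.0041.

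Beside the heat and knockdown comparisons, summed macrophage markers, of which 2 of 5 passed the filter (Cd68 and Lyz2), were at 2.71 to 3.24 FPKM in heated and 1.47 to 1.90 FPKM in unheated YAP/TAZ siRNA cells, and at 6.13 and 6.63 FPKM in heated and 2.28 to 2.60 FPKM in unheated control siRNA cells. Summed fibroblast markers were at 4.85 to 5.89 FPKM in heated and 6.71 to 6.95 FPKM in unheated YAP/TAZ siRNA cells, and at 2.81 and 3.48 FPKM in heated and 5.75 to 5.93 FPKM in unheated control siRNA cells. Summed lymphocyte markers, of which 1 of 5 passed the filter (Cd79a), were at 0.181 to 0.365 FPKM in heated and 0.0437 to 0.239 FPKM in unheated YAP/TAZ siRNA cells, and at 1.89 and 1.92 FPKM in heated and 0.125 to 0.317 FPKM in unheated control siRNA cells. Summed endothelial markers, none above the filter, were at 0.0645 to 0.135 FPKM in heated and 0.0145 to 0.0208 FPKM in unheated YAP/TAZ siRNA cells, and at 0.995 and 1.15 FPKM in heated and 0.00348 to 0.0592 FPKM in unheated control siRNA cells. The heated control libraries were the highest for the macrophage, lymphocyte and endothelial lists. Dcn of fibroblasts, Ptprc of leukocytes, Cd8a of lymphocytes and Cdh5 of endothelium were listed at 0 in all 11 libraries. Of 8 melanocyte lineage markers, 1 rose and 5 fell with heat in YAP/TAZ siRNA cells (18.6% and 31.7% of all genes) and 0 rose and 4 fell in control siRNA cells (12.4% and 36.9% of all genes). With YAP/TAZ siRNA, 5 rose and 2 fell without heat (27.1% and 21.9% of all genes) and 6 rose and 1 fell after heat (36.3% and 17.9% of all genes). The summed level of these 8 markers was 7206 to 8061 FPKM in heated YAP/TAZ siRNA cells against 6287 and 6533 FPKM in heated control siRNA cells, and 7929 to 8277 FPKM in unheated YAP/TAZ siRNA cells against 7064 to 7678 FPKM in unheated control siRNA cells. Both macrophage markers above the filter and Cd79a fell with YAP/TAZ siRNA after heat, where 17.9% of all genes fell. The part of these markers in the members' values was not tested.

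**Figure D3:**
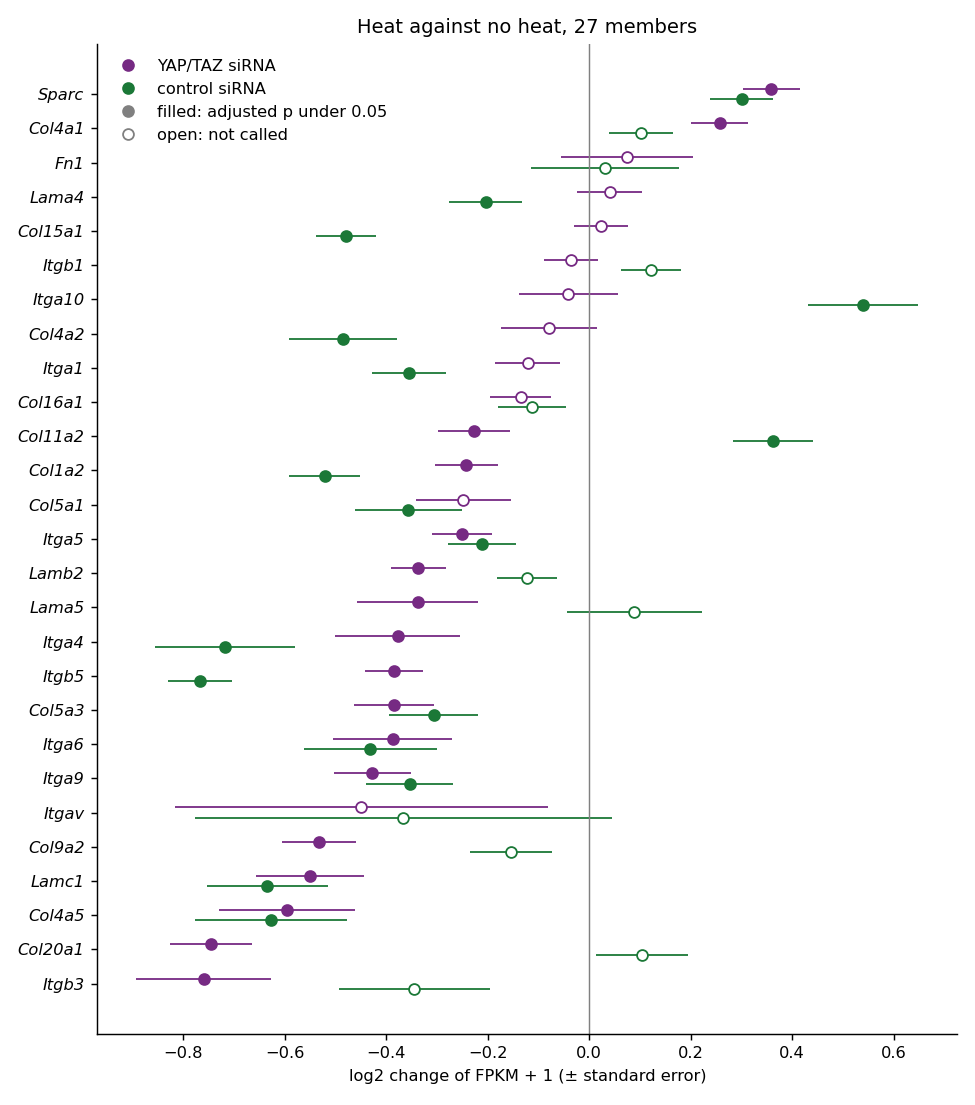
Log2 change of FPKM + 1 (points, with standard errors) for heat against no heat in the 27 members, YAP/TAZ siRNA cells in purple and control siRNA cells in green, ordered by the value in YAP/TAZ siRNA cells. Filled points were called in the filtered fit and open points were not. Col11a2 in YAP/TAZ siRNA cells was not called in the fit without a filter. Most points lie left of 0. Sparc, Col4a1 and Fn1 lie to the right in both. Col11a2 and Itga10, and the uncalled Itgb1, Col20a1 and Lama5, lie to the right in control siRNA cells alone. Lama4 and Col15a1, uncalled there, do so in YAP/TAZ siRNA cells alone.

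The heat response of 8 members differed between YAP/TAZ siRNA and control siRNA cells by the interaction test, 4 in each direction, where 24.6% of all genes had a higher and 13.4% a lower value (37.9% called). The members' median interaction was 0.03 on the log2 scale, beside 0.11 for all genes, and the split of 4 and 4 became 2 and 6 with median-of-ratios scaling and 5 and 5 with quantile normalization. Because the scale is log2(FPKM + 1), an interaction of a low gene also depends on its starting level. Col20a1 had the lowest value (-0.85 ± 0.12, adjusted p = 0.000762): it fell with heat (-0.74 ± 0.08) in YAP/TAZ siRNA cells and was not called in control siRNA cells (0.10 ± 0.09). Col11a2 (-0.59 ± 0.11, adjusted p = 0.00519) was at -0.23 ± 0.07 in YAP/TAZ siRNA cells, a call that ended under 8 of the alternatives, the fit without a filter among them, and rose by 0.36 ± 0.08 in control siRNA cells. Itga10 (-0.58 ± 0.14, adjusted p = 0.0185) rose in control siRNA cells and was not called in YAP/TAZ siRNA cells (-0.04 ± 0.09).

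Among the positive values, Col15a1 (0.50 ± 0.08, adjusted p = 0.00124) fell with heat in control siRNA cells (-0.48 ± 0.06) and was not called in YAP/TAZ siRNA cells (0.02 ± 0.05), where its unheated libraries were at 1.74 to 1.92 FPKM. Itgb5 (0.38 ± 0.09, adjusted p = 0.00727) fell in both and less so under YAP/TAZ siRNA. The filter admitted Col11a2, Itga10, Col4a2, Col1a2 and Col9a2 through groups in which they were high, so their calls are description only. The 5 calls named so far held under every alternative that tested the gene. Those of Col4a2 (0.41 ± 0.15, adjusted p = 0.0961), Col1a2 (0.28 ± 0.09, adjusted p = 0.0586) and Col9a2 (-0.38 ± 0.11, adjusted p = 0.0371) did not: Col4a2 and Col1a2 were not called in the fit without a filter, from which these values come, and with a pseudocount of 0.1 FPKM they stood at adjusted p = 0.138, 0.126 and 0.519. For the other 19 members, Sparc included (0.06 ± 0.08, adjusted p = 0.614), a difference between the heat responses was not called, although 6 of the 19 were called under at least 1 alternative (Itga1, Itgb1, Itgb3, Lama4, Lama5 and Lamb2).

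Summed by class, the collagens were at 40.1 ± 2.77 FPKM (SD, n = 3) in heated YAP/TAZ siRNA cells against 34.5 ± 0.819 FPKM (SD, n = 2) in heated control siRNA cells, and at 52.0 ± 3.08 against 41.4 ± 1.57 FPKM (SD, n = 3 each) in unheated YAP/TAZ siRNA and unheated control siRNA cells. On the deposited FPKM scale, collagen sums of knockdown libraries were higher than those of control libraries in both states. The heated sums overlap once divided by the median-of-ratios size factors. These factors were 0.90 and 0.91 in heated control siRNA libraries and 0.98 to 1.02 in heated YAP/TAZ siRNA libraries. Within the heated sums, Col5a3 alone had means of 8.42 FPKM with YAP/TAZ siRNA and 3.12 FPKM with control siRNA. Laminin sums were 46.1 ± 3.34 FPKM (SD, n = 3) in heated YAP/TAZ siRNA cells against 46.5 ± 0.427 FPKM (SD, n = 2) in heated control siRNA cells, and 59.2 ± 4.86 against 60.3 ± 0.934 FPKM (SD, n = 3 each) in unheated YAP/TAZ siRNA and unheated control siRNA cells. For laminins the difference between the siRNAs was smaller than the larger SD of each pair, and heated cells were lower than unheated cells. Integrin alpha sums overlapped between the siRNAs in both states (30.6 to 41.4 FPKM in heated YAP/TAZ siRNA cells, 31.8 and 33.8 FPKM in heated control siRNA cells, 40.5 to 50.2 FPKM in unheated YAP/TAZ siRNA cells and 40.1 to 46.9 FPKM in unheated control siRNA cells).

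**Figure D4:**
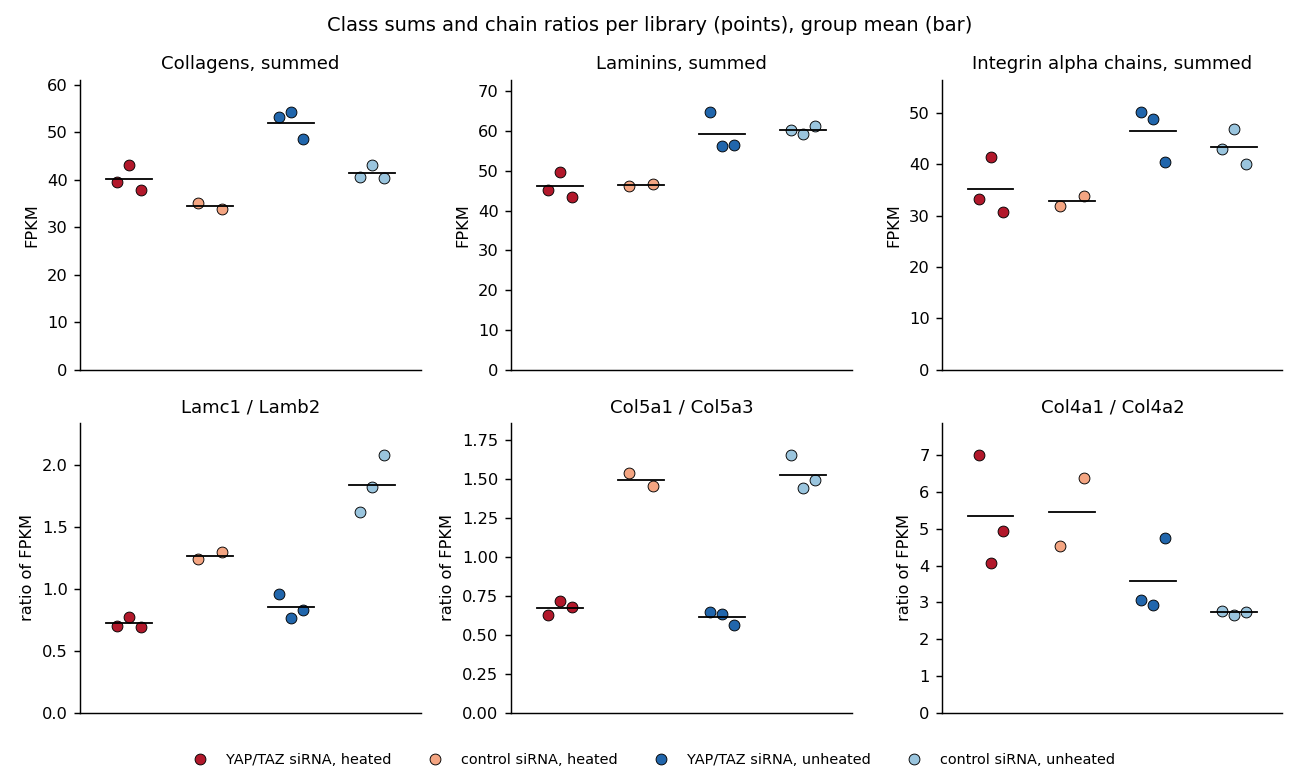
Summed FPKM of collagens, laminins and integrin alpha chains (top row) and FPKM ratios of chain pairs (bottom row) in each library (points) with the group mean (bar), all axes starting at 0. All 6 YAP/TAZ siRNA libraries have lower Lamc1 to Lamb2 and Col5a1 to Col5a3 ratios than the 5 control siRNA libraries, while the laminin sums overlap between the siRNAs.

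The 56 members below the filter were mostly near 0. Of these, 31 stayed under 0.1 FPKM in every library and 5 were listed at 0 throughout (Col13a1, Col22a1, Col5a2, Col6a5 and Lama1). Their summed FPKM was 4.93 to 5.28 in heated YAP/TAZ siRNA cells, 9.78 and 8.44 in heated control siRNA cells, 5.60 to 6.13 in unheated YAP/TAZ siRNA cells and 4.75 to 4.92 in unheated control siRNA cells. The heated control libraries were highest, with 40 and 43 of the 56 above 0 against 29 to 36 in unheated control siRNA cells. A fit without the filter held 51 of them. With heat in control siRNA cells 16 rose and 1 fell, where 15.9% of all entries below the filter rose and 2.26% fell. With heat in YAP/TAZ siRNA cells 1 rose and 3 fell, where 3.57% rose and 4.57% fell. With YAP/TAZ siRNA 2 rose and 20 fell after heat, where 2.60% rose and 13.9% fell, and 7 rose and 4 fell without heat, where 4.76% rose and 1.31% fell. The interaction called 0 higher and 15 lower, where 0.814% were higher and 10.8% lower. The largest by log2 change were Itga7, the laminin receptor chain of muscle (0.89 ± 0.06 with heat in control siRNA cells), Col10a1, of hypertrophic cartilage (0.77 ± 0.06), and Itgb8, a beta chain that activates TGF-beta (0.70 ± 0.02), chosen after their values were seen. Without heat, Lamc3 rose with YAP/TAZ siRNA (0.77 ± 0.06) and Lamb1 fell (-0.60 ± 0.03), also chosen after their values were seen. Genes above 0 in the whole table numbered 23173 and 23242 in heated control siRNA libraries against 20000 to 20365 in unheated ones, and the part of this wider detection in the members' values was not tested.

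The enzymes and chaperones that make collagen moved in both directions. Of 20 tested, 7 rose and 6 fell with YAP/TAZ siRNA without heat (median log2 change 0.04), beside 27.1% and 21.9% of all genes, and 8 rose and 5 fell after heat (0.11), beside 36.3% and 17.9%, which is near the background. Serpinh1, the collagen chaperone HSP47, was at 80.4, 83.4 and 80.6 FPKM in heated YAP/TAZ siRNA cells against 151 and 132 FPKM in heated control siRNA cells. In unheated cells, Serpinh1 was at 61.7, 59.8 and 60.0 FPKM with YAP/TAZ siRNA against 74.8, 71.1 and 77.0 FPKM with control siRNA. It rose with heat by 0.42 ± 0.05, adjusted p = 0.000299 in YAP/TAZ siRNA cells and by 0.92 ± 0.06, adjusted p = 3.5e-06 in control siRNA cells, the call in YAP/TAZ siRNA cells ending with quantile normalization (0.19, adjusted p = 0.0639), and it fell with YAP/TAZ siRNA after heat (-0.78 ± 0.06, adjusted p = 8.49e-06). Pcolce, an enhancer of procollagen trimming, fell, at -1.65 ± 0.06, adjusted p = 1.68e-07 without heat and at -1.26 ± 0.06, adjusted p = 7.81e-07 after heat. P4ha2, a prolyl hydroxylase subunit, fell, at -1.03 ± 0.06, adjusted p = 2.36e-06 without heat and at -1.06 ± 0.07, adjusted p = 3.73e-06 after heat. Bmp1, the protease that trims procollagen, rose without heat (0.46 ± 0.05, adjusted p = 0.000113). With heat 2 of the 20 rose and 5 fell in control siRNA cells, and 6 rose and 4 fell in YAP/TAZ siRNA cells, beside 12.4% and 36.9% of all genes in control siRNA cells and 18.6% and 31.7% in YAP/TAZ siRNA cells.

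Of 9 basement membrane and matricellular partners, 4 rose and 3 fell with YAP/TAZ siRNA without heat (median log2 change 0.03), where 27.1% and 21.9% of all genes did, and 4 rose and 1 fell after heat (-0.10), where 36.3% and 17.9% did. Sparcl1, the closest relative of Sparc, was at 156, 162 and 164 FPKM in heated YAP/TAZ siRNA cells against 61.8 and 65.1 FPKM in heated control siRNA cells. In unheated cells, Sparcl1 was at 198, 202 and 204 FPKM with YAP/TAZ siRNA against 68.8, 67.4 and 65.1 FPKM with control siRNA. It rose with YAP/TAZ siRNA, by 1.57 ± 0.04, adjusted p = 5.36e-08 without heat and by 1.33 ± 0.04, adjusted p = 9.73e-08 after heat, opposite to Sparc in both states. Thrombospondin 1, Thbs1, fell, at -1.14 ± 0.08, adjusted p = 5.3e-06 without heat and at -0.88 ± 0.09, adjusted p = 5e-05 after heat. Agrin, Agrn, a basement membrane proteoglycan, rose by 0.72 ± 0.09, adjusted p = 0.000143 without heat and by 0.66 ± 0.10, adjusted p = 0.00047 after heat.

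Of 24 genes of the integrin adhesion machinery, 7 rose and 13 fell with YAP/TAZ siRNA without heat (median log2 change -0.27), beside 27.1% and 21.9% of all genes, and 5 rose and 14 fell after heat (-0.34), beside 36.3% and 17.9%. With heat 2 rose and 10 fell in YAP/TAZ siRNA cells, beside 18.6% and 31.7% of all genes, and 3 rose and 9 fell in control siRNA cells, beside 12.4% and 36.9%. Lims2 and Lims1, which encode the PINCH adaptors that bind integrin-linked kinase, fell, at -1.98 ± 0.16, adjusted p = 9.26e-06 and -0.62 ± 0.06, adjusted p = 4.42e-05 without heat, and at -1.68 ± 0.18, adjusted p = 5.06e-05 and -0.72 ± 0.07, adjusted p = 3.81e-05 after heat. Actn4, an actin crosslinker, fell without heat (-0.69 ± 0.07, adjusted p = 5.04e-05), and Bcar1, the adaptor p130Cas, fell after heat (-1.07 ± 0.08, adjusted p = 5.94e-06). Fermt3, kindlin-3, rose with heat by 0.93 ± 0.08, adjusted p = 3.11e-05 in YAP/TAZ siRNA cells and by 1.67 ± 0.09, adjusted p = 7.96e-07 in control siRNA cells.

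Of 11 non-integrin matrix receptors, 5 rose and 3 fell with YAP/TAZ siRNA without heat (27.1% and 21.9% of all genes), and 3 rose and 3 fell after heat (36.3% and 17.9% of all genes). Cd44, the hyaluronan receptor, rose by 0.54 ± 0.08, adjusted p = 0.000472 without heat and by 0.93 ± 0.09, adjusted p = 3.39e-05 after heat, and fell with heat in control siRNA cells (-0.81 ± 0.09, adjusted p = 7.83e-05). Of 10 matrix proteases and inhibitors, 6 rose and 2 fell with YAP/TAZ siRNA without heat (27.1% and 21.9% of all genes), and 5 rose and 3 fell after heat (36.3% and 17.9% of all genes). Mmp14, a membrane-bound collagenase, rose with YAP/TAZ siRNA by 0.60 ± 0.04, adjusted p = 5.06e-06 without heat and by 0.77 ± 0.05, adjusted p = 2.39e-06 after heat, and fell with heat at -0.53 ± 0.04, adjusted p = 2.71e-05 in YAP/TAZ siRNA cells and at -0.70 ± 0.05, adjusted p = 3.86e-06 in control siRNA cells.

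**Figure D5:**
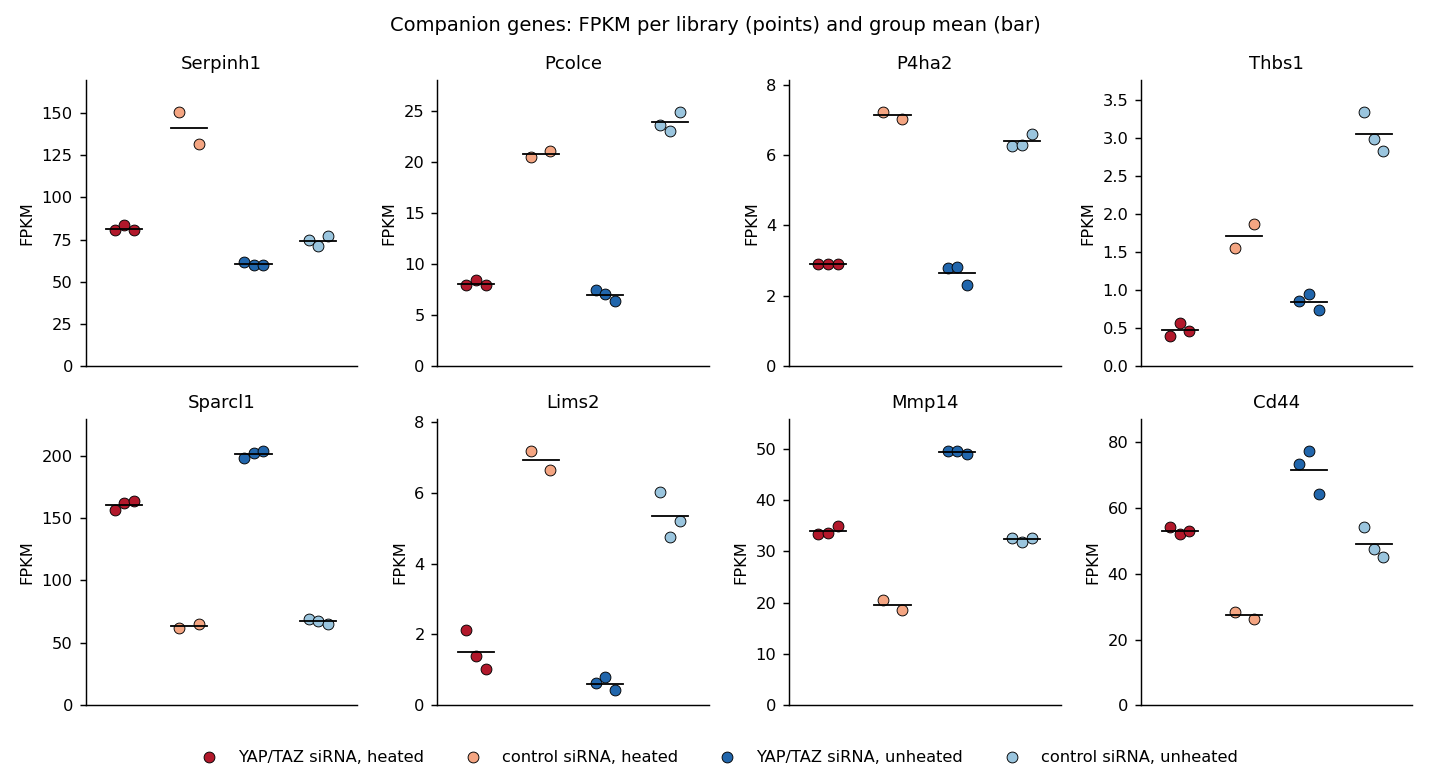
FPKM of 8 genes of collagen synthesis, matrix, adhesion and proteolysis in each library (points) with the group mean (bar), on linear axes from 0 in the order heated YAP/TAZ siRNA, heated control siRNA, unheated YAP/TAZ siRNA and unheated control siRNA. Pcolce, P4ha2, Thbs1 and Lims2 are lower, and Sparcl1, Mmp14 and Cd44 higher, in the YAP/TAZ siRNA libraries than in control siRNA libraries of the same heat state.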

How the data were processed

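RNA was sequenced in 11 libraries of B16-OVA cells. The authors deposited FPKM values in 1 gene table, per the file headers. For the steps before deposit, the submitters' processing notes list StringTie, HISAT2, SAMtools, DESeq2 and Trimmomatic 0.36 without roles, and the build GRCm38. How reads were counted, and whether by strand, is not given in the sources used here. Exons of 10 of the 27 tested members overlap those of another gene. No read counts came with the values, so precision rests on the spread between libraries.

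Symbols and positions came from GENCODE M21. The filter kept 12626 genes that reached 1 FPKM in 2 or more libraries. Their deposited values were transformed here to log2(FPKM + 1), on which fold changes of low genes are understated, and entered 1 fit in limma 3.58.1 (R 4.3.3, trended empirical Bayes) with a mean for each group and 7 residual degrees of freedom. Two-sided p-values were adjusted over all tested genes in each of 5 comparisons by the Benjamini-Hochberg method, and genes under 0.05 were called. Unless marked SD, a value after ± is the standard error of the log2 change before it. The fit was tested on simulated data with few changed genes, independent noise, and no offset of scale or replicate effect. That test does not cover how calls depend on scaling. Sums, promoter matches and figures used Python 3.11.15, pandas 2.3.3, numpy 2.4.6, scipy 1.17.1 and matplotlib 3.10.9.

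Members, companion lists and marker lists were chosen with earlier results of these data known. Library values were given for Sparc, Fn1, the 6 collagens, 4 laminins, 4 integrin alpha and 3 integrin beta genes with the highest mean of the group means, and for the 4 called members furthest above and below 0 in each comparison. Per comparison, up to 3 genes of a companion list by p-value could be named, and 1 companion gene is not reported here. Each library was left out in turn, and the pseudocount, filter, scaling, replicate block and the libraries in the fit were varied.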

Additional observations from a re-analysis of the deposited data

Results flagged for a closer look

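For 8 of 27 members (29.6%) the heat response differed between YAP/TAZ siRNA and control siRNA cells by the interaction test of the limma fit. Of all genes 37.9% were called by that test, so the count does not set the members apart. The differences on the log2 scale, YAP/TAZ siRNA minus control siRNA, were 0.50 for Col15a1, 0.41 for Col4a2, 0.38 for Itgb5, 0.28 for Col1a2, -0.38 for Col9a2, -0.58 for Itga10, -0.59 for Col11a2 and -0.85 for Col20a1. The calls of Col4a2 and Col1a2 ended in the fit without a filter. The filter had admitted Col4a2, Col1a2, Col9a2, Itga10 and Col11a2 through groups in which they were high. Among genes of the companion lists that could be named, the heat response also differed for the 10 given next, and for Cd44 and Fbln1. Those genes were picked by smallest p-value in each list, so their number is description only. The calls of Cd44 and Fbln1 ended under several alternatives, among them median-of-ratios scaling (0.33, adjusted p = 0.0669 and 0.12, adjusted p = 0.15). Positive differences were 0.64 for Loxl3, a lysyl oxidase-like gene of collagen crosslinking, 0.62 for the syndecan gene Sdc1, 0.39 for the metalloproteinase inhibitor gene Timp1 and 0.38 for Parvb, a parvin of integrin adhesions, whose call ended with quantile normalization (0.19, adjusted p = 0.103). Negative differences were -0.25 for Sparcl1, -0.49 for Serpinh1, -0.72 for the syndecan gene Sdc4, -0.74 for Fermt3, -0.90 for the metalloproteinase inhibitor gene Timp3 and -1.02 for Spp1, which encodes osteopontin. The Fermt3 call ended with a pseudocount of 0.1 FPKM (-0.85, adjusted p = 0.103). The Timp1 call ended without a filter (0.39, adjusted p = 0.0612), with median-of-ratios scaling (0.34, adjusted p = 0.0834) and with quantile normalization (0.28, adjusted p = 0.131). It also ended with omissions of single libraries from each of the 4 groups. Spp1 was at 4.67, 3.62 and 3.91 FPKM in heated YAP/TAZ siRNA cells against 5.47 and 4.48 FPKM in heated control siRNA cells. In unheated cells, Spp1 was at 4.92, 5.77 and 6.14 FPKM with YAP/TAZ siRNA against 2.52, 2.76 and 3.24 FPKM with control siRNA. Its heated knockdown libraries overlapped the heated control libraries, and its unheated knockdown libraries all lay above the unheated control libraries. Groups held 2 or 3 libraries, too few to single out one library as far from the rest.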

How the results depend on the processing

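Of 74 called values of members over 5 comparisons, 54 kept their call and direction under every alternative that tested them, and 20 lost the call at least once (15 with median-of-ratios scaling, 14 with quantile normalization). Calls held under every alternative for 15 of 17 members for YAP/TAZ siRNA without heat, 12 of 15 after heat, 11 of 17 for heat in control siRNA cells, 11 of 17 in YAP/TAZ siRNA cells and 5 of 8 for the interaction. These counts include members that the filter admitted through the groups in which they were high. Of 78 called values of companion genes, 70 held, with the same alternatives applied to them after the data were seen. The values that turned were the heat change of Sparc in YAP/TAZ siRNA cells (-0.053) and the interaction of Fbln1 (-0.030, against 0.18), both with quantile normalization. The cause was not tested.

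With the filter at 5 FPKM, which tested 18 members, 4 fell with YAP/TAZ siRNA without heat, 1 rose with heat in control siRNA cells, and the interaction called 1 higher and 0 lower (fewer genes tested). For heat in control siRNA cells, 5 rose and 8 fell with median-of-ratios scaling, and 9 fell with quantile normalization. The interaction called 2 members higher with a pseudocount of 0.1 FPKM, without a filter and with median-of-ratios scaling. Leaving out 1 library at a time gave 9 to 14 members lower with heat in control siRNA cells, with the lowest count without heated control replicate 1 or unheated control replicate 2, and 2 to 3 members higher and 3 to 6 lower for the interaction.

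Residuals of same-numbered libraries correlated at -0.11 to 0.13 over 15 pairs, and of others at -0.18 to 0.16 over 30. Residuals from the mean of so few libraries are tied to each other. These correlations therefore cannot decide whether replicate numbers pair the libraries. With the replicate block, 2 of the 74 calls ended, both of the interaction (Col1a2 and Col4a2), and 7 uncalled values became called: those of Itga4, Itgb1 and Lama5 for YAP/TAZ siRNA after heat, Itgb1 for heat in control siRNA cells, Col5a1 for heat in YAP/TAZ siRNA cells, and Itgb1 and Lama5 for the interaction, which then called 2 members higher and 6 lower. Of 61 uncalled values, 23 became called under at least 1 alternative (9 with quantile normalization, 7 with median-of-ratios scaling). The 23 were 6 each for YAP/TAZ siRNA after heat and the interaction, 5 for heat in each siRNA state and 1 for YAP/TAZ siRNA without heat. An uncalled value here is thus not always a stable one. Among the 61, 22 changed sign under at least 1 alternative. At these depths, members under about 0.1 FPKM rest on few units.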
